A study of Rattus norvegicus with 7 samples.

Results

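Actin filaments give a cell its cortex, its contractile force and its attachment to the membrane. 10 genes of this system were examined in type 2 cells of rat alveoli, which make and secrete surfactant. They were the tropomyosins Tpm4 and Tpm1, the membrane linkers Msn, Ezr and Rdx, the myosin light chain Myl6b, the PDZ-LIM protein Pdlim5, the intermediate filament protein Vim, cytoplasmic actin Actb and the filament-severing protein Cfl1. A probe set was taken where the platform's annotation gave it a single gene symbol and that symbol was among the 10. This gave 15 of the 8740 probe sets tested, for 8 of the 10 genes and of the 4736 genes that the array named singly. 4 genes had several probe sets (Tpm1 had 5, and Tpm4, Msn and Pdlim5 had 2 each) and 4 had 1 each (Ezr, Myl6b, Vim and Actb). No probe set used here carried the symbol Rdx. Cfl1 appeared only on probe sets annotated jointly to a second gene, so Rdx and Cfl1 have no values of their own.

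The genes were chosen on their measured log2 difference between diets in these same arrays, because Tpm4, Msn, Myl6b and Pdlim5 were among the lowest with ethanol. Their differences between diets are therefore given as a description, without a test. The comparison was between 3 male Sprague Dawley rats on a Lieber-DeCarli liquid diet in which ethanol supplied 36% of calories for 6 weeks and 4 male rats of that strain on an isocaloric diet without ethanol for 6 weeks. The titles number the ethanol arrays 2, 3 and 4 and the control arrays 1, 2, 3 and 4. Every ethanol array also has a higher running number than every control array, so diet cannot be told apart from anything that followed that numbering. The age of the rats is not given in the labels. Type 2 cells were taken by immunoabsorption and their RNA was read on Affymetrix arrays, so a whole isolate was measured, and fewer cells of a type cannot be told apart from less RNA per cell.

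Markers of type 2 cells were measured on every array, among them Sftpc, which encodes surfactant protein C, at 12.41 to 12.78 with ethanol and 12.76 to 12.84 in controls. Of 13 listed type 2 markers 6 were measured, and the log2 of their summed signal lay at 13.31 to 13.68 in the ethanol isolates and at 13.58 to 13.68 in the controls. The macrophage list, 7 of 13 measured, lay at 11.45 to 12.01 with ethanol and 11.62 to 12.17 in controls. Most of this sum was lysozyme (Lyz2), at 11.21 to 11.88 with ethanol and 11.47 to 12.07 in controls, while Itgam, which encodes the myeloid integrin CD11b, was dim at a mean of 2.61. The sum is therefore chiefly a reading of Lyz2 and cannot tell macrophages from any other cells with Lyz2 RNA, type 2 cells included. Of the list's 12 probe sets only that of Lyz2 was lower with ethanol (-0.27). The other 11 were higher, and the median of the 12 was 0.087, with 0 at an unadjusted p under 0.05 in limma. Over all 8740 probe sets 4237 were higher. Fibroblast, smooth muscle and mesothelial markers, 15 of 17 measured, lay at 9.34 to 9.60 with ethanol and 9.35 to 9.74 in controls. Within that list the collagens Col3a1 and Col1a2 stood at -0.99 (SE 0.352) and -0.62 (SE 0.268) and elastin (Eln) at -0.80 (SE 0.173, groups apart), lower with ethanol as were Tpm4, Msn, Myl6b and Pdlim5. Sparc, a matrix protein, stood at 1.01 (SE 0.224, groups apart, higher) on 1 of its 4 probe sets and as low as -0.95 on another. Dcn, at 0.20 (SE 0.239) on its brightest probe set, and Pdgfrb, at 0.17 (SE 0.124), were also higher. With group means subtracted, the summed list correlated over the 7 arrays at -0.43 with Tpm4 and -0.49 with Msn. It correlated at 0.15 with Myl6b and 0.39 with Pdlim5, each gene by its brightest probe set. The part of these markers in the differences of the 10 genes was not tested. Club cell markers (2 of 4 measured) lay at 9.55 to 9.61 with ethanol and 9.19 to 10.17 in controls. Arrays differed in the spread of their values. The SD over probe sets was 1.337, 1.388 and 1.459 in ethanol 2, 3 and 4 and 1.401, 1.285, 1.363 and 1.437 in controls 1 to 4, so control 2 had the narrowest spread and ethanol 4 the widest.

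Tropomyosins are coiled-coil proteins that lie along the actin filament and govern which other proteins can bind it. Moesin, ezrin and radixin, known together as the ERM proteins, tie the filament to membrane proteins beneath the apical surface and its microvilli. Myosin light chains stabilise the lever arm of myosin, cofilin severs old filaments so that actin can be reused, and Pdlim5 is a scaffold that holds kinases near actin-anchored structures. Vimentin is the filament protein of mesenchymal cells and leukocytes and is little expressed in resting alveolar epithelium.

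The promoters of Tpm4, Msn and Pdlim5, which lay lower with ethanol and have an entry in the RefSeq promoter table, are printed with that of Ezr, the ERM relative that did not share the pattern. Each window runs from 250 bases before to 50 after the start used for that promoter on the GRCr8 build, 5' to 3' on the gene's own strand. For Tpm4, Msn and Ezr that start is the outer end of the annotated gene. For Pdlim5 it lies inside the gene, whose outer end is at 233793582, and the same holds for Tpm1, whose window is counted below. Capitals mark matches to any of 6 motifs searched on both strands: the CArG box bound by serum response factor, a regulator of many actin genes, the TEAD-type element CATTCC, the TATA box as TATAAA, the palindromic E-box CACGTG, the GC box GGGCGG and the CAAT box as CCAAT.
Tpm4, chr16:17732434-17732733, strand -: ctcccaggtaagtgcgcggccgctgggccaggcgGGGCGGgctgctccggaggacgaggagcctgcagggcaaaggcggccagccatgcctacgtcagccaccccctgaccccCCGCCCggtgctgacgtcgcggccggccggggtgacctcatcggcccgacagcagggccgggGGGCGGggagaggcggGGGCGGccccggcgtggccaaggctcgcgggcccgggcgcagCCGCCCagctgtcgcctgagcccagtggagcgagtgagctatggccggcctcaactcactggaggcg
Msn, chrX:65005296-65005595, strand +: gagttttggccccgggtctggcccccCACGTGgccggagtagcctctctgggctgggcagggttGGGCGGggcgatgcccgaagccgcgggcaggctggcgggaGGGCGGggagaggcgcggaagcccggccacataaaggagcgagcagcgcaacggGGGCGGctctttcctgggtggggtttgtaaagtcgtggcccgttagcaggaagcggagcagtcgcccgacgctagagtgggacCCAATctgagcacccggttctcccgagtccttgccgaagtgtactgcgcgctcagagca
Pdlim5, chr2:233793427-233793726, strand -: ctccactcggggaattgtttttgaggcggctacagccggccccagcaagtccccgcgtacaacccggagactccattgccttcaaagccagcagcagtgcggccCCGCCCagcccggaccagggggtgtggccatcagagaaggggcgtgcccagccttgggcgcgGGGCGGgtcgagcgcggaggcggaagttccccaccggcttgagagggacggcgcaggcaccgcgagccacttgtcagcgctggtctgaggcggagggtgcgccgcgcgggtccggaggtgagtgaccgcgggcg
Ezr, chr1:49416524-49416823, strand -: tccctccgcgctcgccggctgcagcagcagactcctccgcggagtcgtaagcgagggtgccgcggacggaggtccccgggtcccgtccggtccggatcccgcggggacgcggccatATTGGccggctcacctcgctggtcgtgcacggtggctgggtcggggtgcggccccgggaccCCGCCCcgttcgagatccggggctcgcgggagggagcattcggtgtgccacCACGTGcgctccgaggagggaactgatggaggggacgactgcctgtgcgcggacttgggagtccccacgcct

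Of the 10 genes, 8 had a promoter in that table; Actb and Myl6b did not. All 8 windows held GGGCGG, found in 33.1% of all 33469 promoter windows, with 5 copies in Tpm4, 3 in Msn, 2 in Pdlim5 and 1 in Ezr. CCAAT was found in 5 of the 8 (37.5% of all windows) and CACGTG in 2, Msn and Ezr (6.42% of all windows). CATTCC was found in 1, Tpm1 (14.2% of all windows), and TATAAA in 1, Vim (14.2%). The CArG box, held by 1.64% of all windows, was in 0 of the 8. Tpm4 and Pdlim5 held no searched motif other than GGGCGG. The CACGTG match stood at -224 to -219 relative to the start in Msn and at -22 to -17 in Ezr. These matches describe the letters of the windows only.

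Across the 15 probe sets 11 were lower on average with ethanol and 4 higher, with a median log2 difference (ethanol minus control) of -0.178, beside -0.005 over all 8740. In 6 probe sets, of Tpm4, Msn, Myl6b and Pdlim5, all 3 ethanol arrays lay below all 4 controls, and in 0 above. Over the whole array, 2.71% of probe sets had all ethanol arrays below all controls and 2.53% above. In limma's test across all probe sets, with Benjamini-Hochberg adjustment, 0 of the 15 had an adjusted p under 0.05, where 0.149% of all probe sets did (13 of 8740). At an unadjusted p under 0.05 there were 5 of the 15, all lower, where 4.58% of all probe sets (400) stood. The 4 genes behind these counts were picked for this contrast, so the counts are fixed by the choice.

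**Figure D1:**
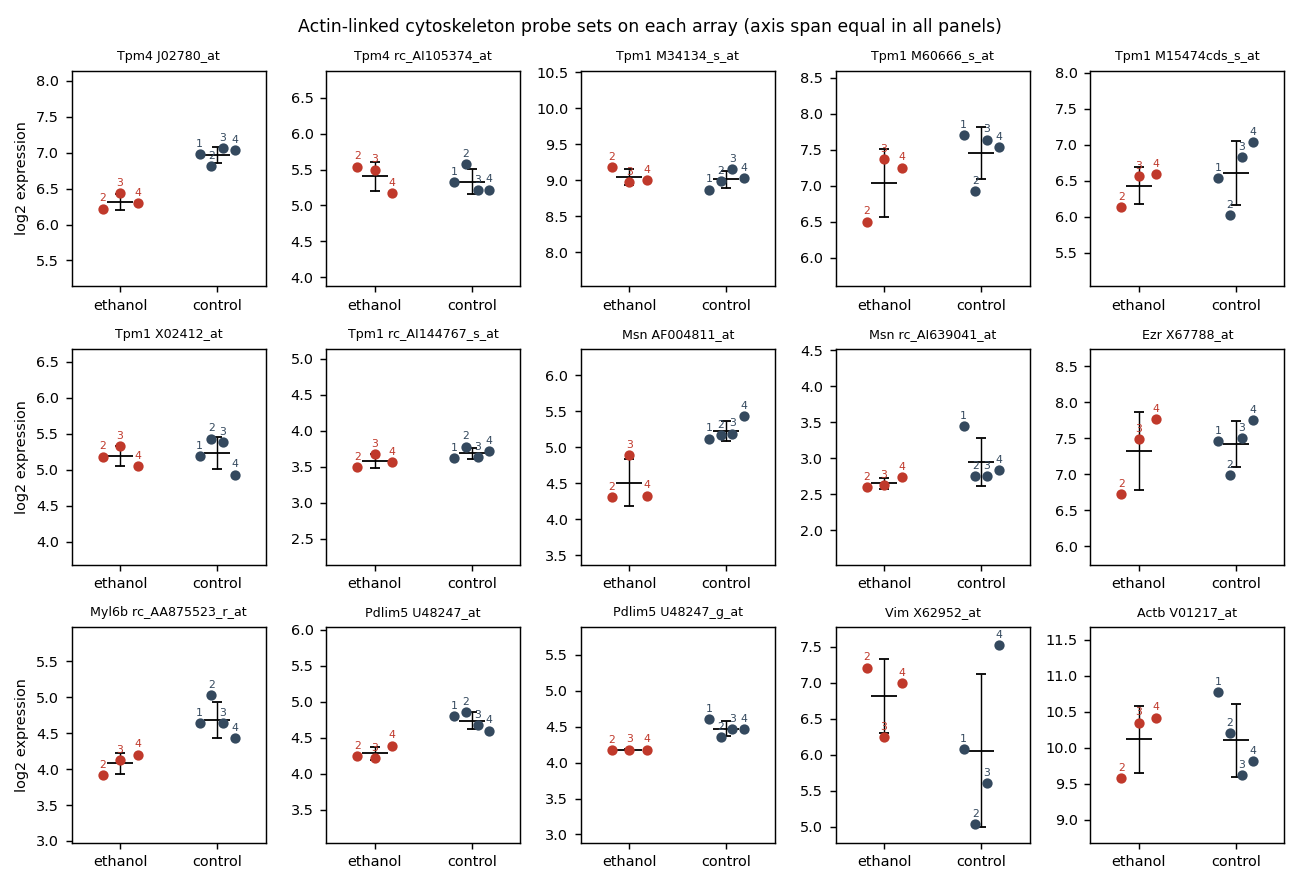
Log2 expression on each array for the 15 probe sets, with ethanol arrays left (red) and controls right (dark); numbers are replicate numbers from the titles, bars are means and SD, and each vertical axis spans 3 log2 units. Both Pdlim5 probe sets, J02780_at of Tpm4, both Msn probe sets and Myl6b have all ethanol arrays below all controls, while Vim ranges over 2.48 units among the controls.

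Tpm4, a tropomyosin of non-muscle cells, was read by J02780_at at 6.22, 6.44 and 6.30 in ethanol 2, 3 and 4 and at 6.98, 6.81, 7.06 and 7.03 in controls 1 to 4. The groups were 0.38 apart at their nearest arrays, and each varied little, with means of 6.32 ± 0.110 (SD, n = 3) and 6.97 ± 0.111 (SD, n = 4). The difference was -0.65 (SE 0.119), an ethanol signal 0.636 times that of controls. The other Tpm4 probe set did not share it. On rc_AI105374_at the values were 5.54, 5.50 and 5.17 in ethanol 2, 3 and 4 and 5.32, 5.58, 5.21 and 5.22 in controls 1 to 4, a difference of 0.07 (SE 0.146). Here the groups overlapped, and ethanol 4, control 3 and control 4 were the low arrays. The differences of the 2 Tpm4 probe sets were 0.72 apart, while the median gap over all 3281 pairs of probe sets with a shared gene symbol was 0.143. After each group mean was subtracted, the 2 correlated at -0.56 over 7 arrays, where the median of all such pairs was 0.36. This correlation was 0.61 in the 5 arrays left without the 2 farthest from the median, so its sign rests on those 2. Against the spread of values on each array, likewise with group means subtracted, J02780_at correlated at 0.61 and rc_AI105374_at at -0.88, and the part of array spread in either result was not tested. The summed T and natural killer cell markers (8 of 10 measured, 7.49 to 7.64 with ethanol and 7.60 to 7.73 in controls) correlated at -0.79 with J02780_at and at -0.78 with the Msn probe set AF004811_at within groups. Those 8 markers were dim, at a mean log2 of 4.39 to 4.50 with ethanol and 4.52 to 4.61 in controls. The median of all probe set means was 4.59, so this sum adds up dim readings and shows no clear signal of such cells. The summed alveolar type 1 markers (4 of 7 measured, 8.50 to 8.83 with ethanol and 8.49 to 8.87 in controls) correlated at -0.69 with J02780_at, at -0.90 with AF004811_at and at 0.77 with U48247_at of Pdlim5. The part of neither list was tested.

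Tpm1 encodes alpha-tropomyosin, which is spliced into many muscle and non-muscle forms, and the groups overlapped on all 5 of its probe sets. M34134_s_at, which had the highest mean signal of the 5 and stood for the gene, lay at 9.18, 8.97 and 9.0 in ethanol 2, 3 and 4 and at 8.87, 8.99, 9.16 and 9.03 in controls 1 to 4, a difference of 0.04 (SE 0.121). Its groups overlapped almost fully, and under quantile normalization the difference turned to -0.09. M60666_s_at lay at 6.50, 7.37 and 7.25 in the ethanol arrays and 7.70, 6.92, 7.64 and 7.54 in the controls. Ethanol 2 and control 2 were the low arrays of their groups, and the difference of -0.41 (SE 0.248) was -0.137 without ethanol 2 and -0.583 without control 2. M15474cds_s_at had the same 2 low arrays, at 6.13 in ethanol 2 and 6.02 in control 2, and a difference of -0.18 (SE 0.234), which was -0.03 without ethanol 2, -0.035 without control 4, -0.103 without control 3 and -0.375 without control 2. These 2 probe sets correlated at 0.79 within groups (Spearman 0.29), and at -0.74 without the 2 farthest arrays, so their likeness rests on ethanol 2 and control 2, the arrays of narrowest spread in their groups. X02412_at and rc_AI144767_s_at differed by -0.05 (SE 0.149) and -0.11 (SE 0.112), with overlapping groups. Over the 10 Tpm1 pairs the within-group correlation ran from -0.57 to 0.79 with a median of -0.04. The mean of the 5 differences was -0.14, against 0.04 for M34134_s_at, so a single direction for Tpm1 depends on the probe set read.

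Msn encodes moesin, the ERM protein most abundant in leukocytes and endothelium. AF004811_at lay at 4.31, 4.89 and 4.33 in ethanol 2, 3 and 4 and at 5.12, 5.17, 5.19 and 5.43 in controls 1 to 4. Ethanol 3 stood closest to the controls, 0.23 below the lowest of them, and the difference was -0.72 (SE 0.165), the lowest of the 15 and an ethanol signal 0.608 times that of controls. With each array left out it ran from -0.906 to -0.616. The second Msn probe set, rc_AI639041_at, was near the floor of the table (1.65), at 2.60, 2.62 and 2.74 with ethanol and 3.44, 2.75, 2.75 and 2.83 in controls. Its groups did not overlap, but ethanol 4 and controls 2 and 3 nearly touched, and the difference of -0.29 (SE 0.178) was -0.122 without control 1. The 2 Msn probe sets correlated at -0.24 within groups over the 7 arrays.

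Ezr encodes ezrin, the ERM protein of epithelial microvilli. X67788_at lay at 6.72, 7.49 and 7.77 in ethanol 2, 3 and 4 and at 7.46, 6.99, 7.50 and 7.75 in controls 1 to 4, a difference of -0.10 (SE 0.257). The groups overlapped throughout, and the difference was 0.208 without ethanol 2, 0.011 without control 4 and -0.321 without ethanol 4, so it has no settled sign. Ethanol 2 and control 2 were again lowest and ethanol 4 and control 4 highest, which is also the order of array spread within each group at both ends. Ezr correlated at 0.91 with that spread, at 0.88 with the summed macrophage markers, mostly Lyz2, and at 0.87 with the summed type 2 markers within groups over the 7 arrays; their part in Ezr was not tested.

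Myl6b belongs to the essential light chains of non-muscle and slow muscle myosin. rc_AA875523_r_at lay at 3.92, 4.12 and 4.20 in ethanol 2, 3 and 4 and at 4.64, 5.03, 4.64 and 4.43 in controls 1 to 4, all ethanol arrays being at least 0.23 below the controls. The difference was -0.60 (SE 0.157), an ethanol signal 0.658 times that of controls. This probe set was dim, its mean over the arrays being under the median of all probe set means (4.59). The gene identifier the platform gives for Myl6b was not matched in the RefSeq table, where the symbol belongs to a pseudogene under another identifier, so the name is the platform's alone. A companion probe set of the same expressed sequence tag, rc_AA875523_i_at, is annotated to Myl6b and Myl6 together. It lay at 4.94, 5.41 and 5.43 with ethanol and 5.69, 5.74, 5.77 and 5.65 in controls, again without overlap, a difference of -0.45 (SE 0.143). The 2 correlated at 0.53 within groups. The other joint probe sets did not separate the diets. rc_AA894200_g_at and S77858_s_at, both shared with Myl6 and further copies, differed by -0.12 (SE 0.133) and -0.22 (SE 0.268), and Myl6's own probe set rc_AA894200_at by -0.03 (SE 0.139).

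Pdlim5, also called Enh, was the gene whose probe sets stood closest together. U48247_at lay at 4.25, 4.22 and 4.39 in ethanol 2, 3 and 4 and at 4.80, 4.86, 4.68 and 4.60 in controls 1 to 4, a difference of -0.45 (SE 0.117). U48247_g_at, drawn from the same GenBank record, lay at 4.17, 4.18 and 4.18 with ethanol and 4.60, 4.35, 4.47 and 4.47 in controls, a difference of -0.30 (SE 0.111). In both the groups were apart, by 0.22 and 0.17, and the ethanol arrays of the second had an SD of 0.00604 (n = 3). Both probe sets were dim, under the median of all probe set means (4.59), so that small SD is not read as precision. Sharing a record, the 2 are not independent readings. Within groups they correlated at -0.14 over 7 arrays, and at 0.86 in the 5 left without the 2 farthest.

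**Figure D2:**
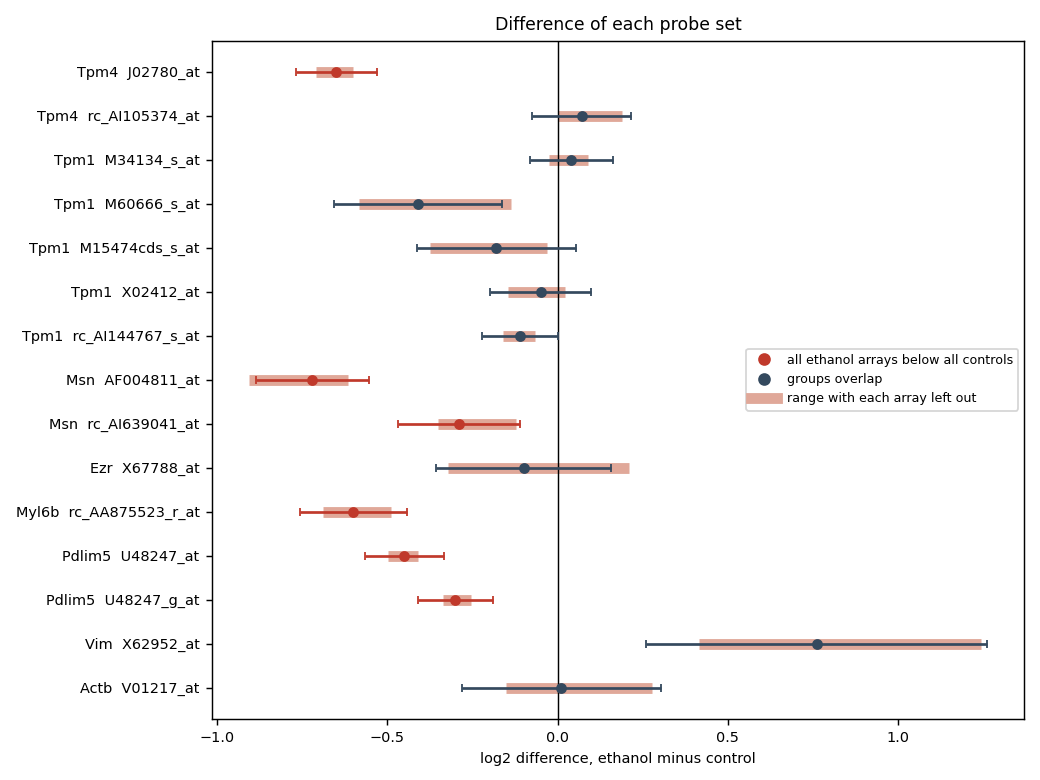
Log2 difference (ethanol minus control) of each of the 15 probe sets on the horizontal axis, with SE from the limma fit as thin bars and the range over leaving out each of the 7 arrays as pale bars. Red points, from -0.72 to -0.29, are the 6 probe sets whose ethanol arrays all lay below the controls, and the Tpm4 and Tpm1 rows show how far probe sets of a single gene stood apart.

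Vim went the other way on average but its controls ranged more widely than those of the other probe sets. X62952_at lay at 7.21, 6.24 and 7.00 in ethanol 2, 3 and 4 and at 6.08, 5.03, 5.60 and 7.52 in controls 1 to 4. Control 4 was above every ethanol array and the other controls were below them all, so the difference of 0.76 (SE 0.502) was 1.243 without control 4 and 0.415 without control 2. Vim correlated within groups at 0.65 with array spread, at -0.63 with the summed endothelial markers, at 0.49 with the summed macrophage markers, which are mostly Lyz2, and at -0.46 with the summed fibroblast, smooth muscle and mesothelial markers over 7 arrays, and the part of each was not tested. The endothelial sum held 4 of 10 listed markers, dim at a mean log2 of 4.41 to 4.67 with ethanol and 4.51 to 4.74 in controls.

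Actb is the most used reference gene for expression assays, and its own probe set here did not follow the array's other actin readings. V01217_at lay at 9.58, 10.35 and 10.42 in ethanol 2, 3 and 4 and at 10.78, 10.20, 9.62 and 9.82 in controls 1 to 4, a difference of 0.01 (SE 0.292). Its groups overlapped, with ethanol 2 and control 3 lowest and control 1 highest. The 3 beta-actin array controls of the mRNA strand (3', middle and 5') differed by -0.16, -0.15 and -0.22. The joint Actb, Actg1 and Actg1l1 probe sets rc_AI070848_f_at and rc_AI179012_s_at differed by -0.18 (SE 0.203) and -0.20 (SE 0.160). In these 5, control 4 was the highest array and their groups overlapped. Taken pairwise the 5 correlated within groups at 0.76 to 0.99, though the lowest of these 10 pairs came to -0.29 without the 2 farthest arrays. V01217_at correlated with the same 5 at -0.46 to 0.11. With the 3 actin controls whose names end in _st, which read the opposite strand, it correlated at 0.67 to 0.83 (Spearman 0.46 to 0.75), and at 0.72 to 0.84 in the 5 arrays left without the 2 farthest. Between diets these 3 (3', middle and 5') differed by -0.35, -0.40 and -0.34 with overlapping groups, farther from the 0.01 of V01217_at than the 5 mRNA probe sets were. This set of correlations was drawn up after the values were seen and is a description over 7 arrays, with no test.

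**Figure D3:**
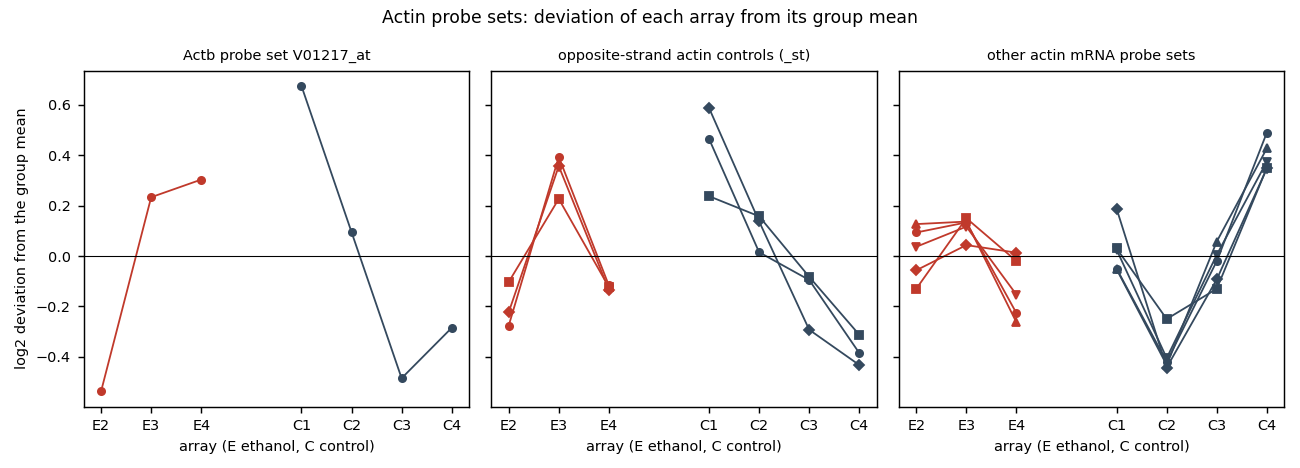
Deviation of each array from its group mean (log2) for V01217_at, the 3 opposite-strand actin controls and the 5 other actin mRNA probe sets, with ethanol arrays (E, red) left of controls (C, dark); lines join the values of a probe set and imply no order. In control 1 V01217_at and the opposite-strand controls are highest, whereas the other 5 actin probe sets are highest in control 4.

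Cfl1 encodes cofilin 1, and its probe sets are joint with Cfl1l1. rc_AI105348_i_at lay at 7.20, 7.39 and 7.24 in ethanol 2, 3 and 4 and at 7.81, 7.34, 7.28 and 7.29 in controls 1 to 4, a difference of -0.15 (SE 0.154). Control 1 was alone above the rest. rc_AI105348_f_at differed by -0.04 (SE 0.128), with overlapping groups.

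Read by 1 probe set each, the 8 genes showed no common pattern within groups. Probe sets of a single gene did not share one over the 7 arrays either, at -0.56 for Tpm4, -0.24 for Msn, -0.14 for Pdlim5 and -0.57 to 0.79 for Tpm1. The values below therefore describe probe sets and do not settle how the genes moved from animal to animal. Over the 28 pairs of genes, each by its probe set of highest mean signal with group means subtracted, the correlation over 7 arrays had a median of -0.12 and was above 0 in 13. No share over all gene pairs of the array is given beside it. Among the 4 genes picked for low values with ethanol, Myl6b and Pdlim5 correlated at 0.81 and Tpm4 and Msn at 0.66, while Tpm4 and Pdlim5 stood at -0.63 and Msn and Pdlim5 at -0.60. Tpm4 and Ezr correlated at 0.73, Myl6b and Vim at -0.81 and Tpm1 and Actb at -0.96, the pair farthest from 0. All points share the same 7 arrays and their differing spread.

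For each gene the patterns most like it within groups were sought among 3609 probe sets of at least median brightness. Those nearest Tpm4 were Sod3, Smad2 and Sqstm1, at 0.970 to 0.981, and those nearest Msn were Egr1, Grhpr and Shank2, at 0.957 to 0.968. Myl6b was nearest Nthl1, Rbm24 and Aqp8 (0.974 to 0.988) and Pdlim5 nearest Furin, Ppp5c and Polr2g (0.949 to 0.958). Ezr was nearest Runx1, Cth and Plaur (0.990 to 0.993), Vim nearest Hrk, Alox5ap and Fcgrt (0.988 to 0.992), Tpm1 nearest RT1-M5, Hbe2 and Cckbr (0.974 to 0.986) and Actb nearest Endod1, Snn and Scly (0.952 to 0.962). With 7 arrays and 3609 candidates, correlations this high are a ranking and no more.

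The wider actin cytoskeleton was read through 9 lists written by role, of 145 genes of which 92 were measured by 146 probe sets. In limma with Benjamini-Hochberg adjustment over all probe sets, 0 of the 146 passed in either direction, with a lowest adjusted p of 0.967. At an unadjusted p under 0.05 there were 2 higher and 7 lower, where 4.58% of all probe sets stood. Of the 146, 91 were lower and 55 higher, with a median of -0.057. Over all 8740 probe sets 4503 were lower and 4237 higher, with a median of -0.005. Probe sets of the same gene are counted separately and all share the same 7 arrays. All ethanol arrays lay below all controls in 5 and above in 3, near the array's shares of 2.71% and 2.53%. Of the 35 probe sets of the fibroblast, smooth muscle and mesothelial marker list 24 were lower and 11 higher with ethanol, with 13 and 2 at an unadjusted p under 0.05. The list holds Acta2, Tagln, Myh11, Cnn1 and Des in common with them, and its part in their differences was not tested.

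The other actins and tropomyosin partners were mostly lower with ethanol, none past the test. Of 7 actin probe sets 6 were lower (median -0.190), among them cytoplasmic gamma-actin, Actg1, at 10.17, 10.68 and 10.41 with ethanol and 10.81, 10.59, 10.74 and 10.85 in controls (difference -0.32, SE 0.145). Acta1, skeletal muscle actin, stood at -0.22 and smooth muscle actin, Acta2, at -0.10, with other Acta2 probe sets from -0.22 to 0.21. Of 15 probe sets for other tropomyosins and their partners, from 9 genes, 14 were lower. Their median of -0.081 lay between the quartiles of all probe sets (-0.118 and 0.106). Tpm2 stood at -0.09 and the filament end-capping Tmod1 at -0.07, while 1 of 5 Tpm3 probe sets was the exception at 0.14, the others reaching down to -0.18. The calponin Cnn3 lay at 3.57, 3.69 and 3.72 with ethanol and 4.44, 4.18, 4.31 and 3.75 in controls (-0.51, SE 0.166), with control 4 just above the ethanol arrays, and its other probe set stood at -0.12.

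Genes for filament turnover, capping and branching leaned the other way, with 12 of 18 probe sets higher, again with 0 past the test. Their median of 0.101 also lay between the quartiles of all probe sets (-0.118 and 0.106). The actin monomer-binding proteins Pfn1 and Tmsb4x stood at 0.16 (SE 0.359) and 0.26 (SE 0.177), the capping protein Capg at 0.36 (SE 0.248) and Cap2 at 0.25 (SE 0.118). Pfn1 was lowest in control 2, at 6.43, and highest in control 4, at 8.23, with 7.38, 7.10 and 7.81 in ethanol 2, 3 and 4 between them. Cap2 alone of these kept its groups apart, at 3.96 to 4.16 with ethanol and 3.72 to 3.94 in controls.

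Crosslinkers and myosin II chains were divided. Of 19 crosslinker and bundler probe sets 10 were lower (median -0.023). Alpha-actinin 4, Actn4, stood at -0.29, the muscle form Actn2 at -0.03 and plastin 3, Pls3, at -0.45. Adducin 1 probe sets (Add1) ran from -0.31 to 0.12. Of 15 probe sets for myosin II chains and regulators 9 were lower (median -0.096), with smooth muscle myosin heavy chain, Myh11, from -0.52 to 0.05 over 3 probe sets and the regulatory light chain Myl9 at 0.01 and 0.24 over 2.

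Among other PDZ-LIM and focal adhesion genes 13 of 19 probe sets were lower (median -0.038). The relatives of Pdlim5 stood on both sides of 0, with Pdlim1 at 0.17 (SE 0.138), Pdlim2 at 0.05 (SE 0.112), Pdlim3 at -0.10 (SE 0.132) and Pdlim4 at -0.28 (SE 0.199), all with overlapping groups. Caveolin 1, Cav1, an alveolar type 1 and endothelial marker, was at 5.43, 5.02 and 4.84 with ethanol and 4.48, 4.48, 4.13 and 4.99 in controls (0.58, SE 0.213, adjusted p = 0.967). Of 11 probe sets for membrane proteins that ERM proteins bind and other ERM partners 6 were lower (median -0.015). The hyaluronan receptor Cd44 ran from -0.32 to 0.29 over 4 probe sets, Icam1 stood at -0.12 and Icam2 at -0.01. Podoplanin, Pdpn, an ERM-binding type 1 cell protein, was at 5.91, 5.59 and 5.84 with ethanol and 6.56, 6.32, 6.26 and 5.85 in controls (-0.47, SE 0.173, adjusted p = 0.967), opposite in sign to Cav1.

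Of 21 other intermediate filament probe sets 14 were lower (median -0.059), with Des at -0.11, Nes at -0.12, Prph at -0.13 and the nuclear lamin Lmnb1 at -0.29.

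**Figure D4:**
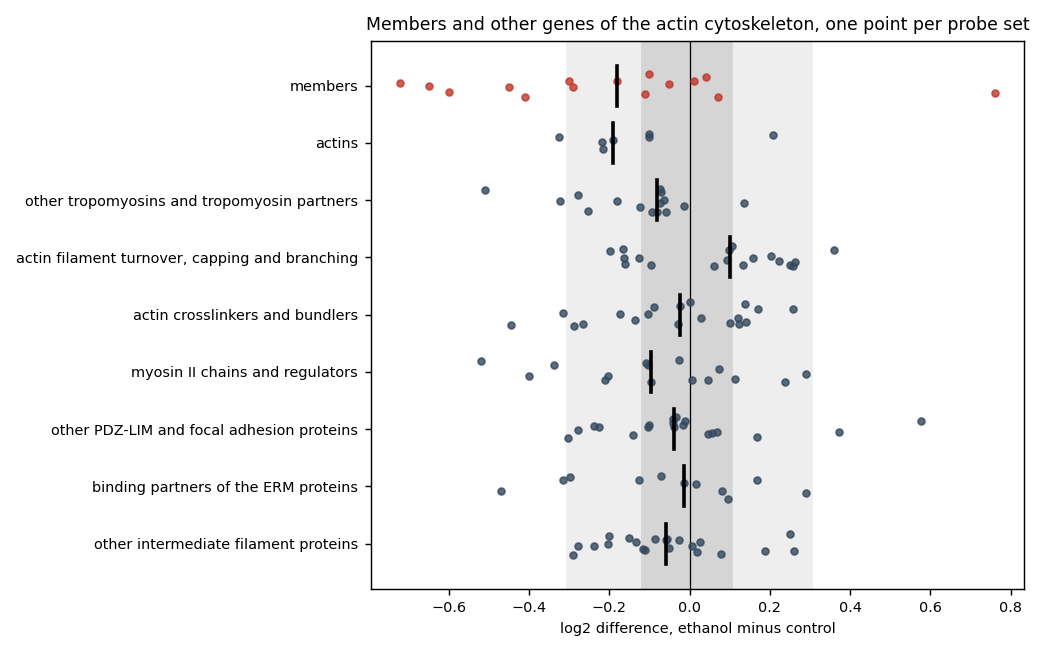
Log2 difference (ethanol minus control) of every probe set of the 8 genes (top row, red) and of 8 of the role lists (dark), with the median of each as a black bar; the grey bands run from -0.118 to 0.106 (lower to upper quartile of all 8740 probe sets) and from -0.305 to 0.304. Most list probe sets lie inside the wider band, and the top row was chosen for its low values.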

How the data were processed

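One value per probe set and array was deposited, read as log2 expression from its range (1.65 to 12.84) and near-equal array means (4.758 to 4.760). No label or header used here states how the authors summarised, background-corrected and normalised these deposited log2 values, and detection calls were not used. Depth has no meaning for arrays, and the 7 arrays limit the precision.

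Tests omitted 59 probe sets that serve as array controls. Of the other 8740, the platform annotation gave 1 symbol to 7006, several to 308 and none to 1426; 6985 matched the RefSeq table of GRCr8 by gene identifier, with 0 symbols differing. Probe sets with several symbols are described as joint.

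Each probe set was fitted with limma 3.58.1 in R 4.3.3, diet as the term, two-sided, with Benjamini-Hochberg adjustment over all 8740 and a threshold of 0.05. The fit was tested on simulated data.

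The genes and lists were chosen with earlier results of these data known. Of each role list, the first 3 measured genes and that with the lowest unadjusted p were named; the values of 1 of the 9 lists are not reported here, though the totals over the lists include it. Likeness was Pearson correlation after subtracting group means, the top 3 genes per member. Other settings tried were quantile normalization, medians made equal, leaving out dim probe sets at 2 limits, a trended robust prior, limma's array weights, the replicate number as a block, omission of each array, and averaging over the probe sets of a gene. Figures used matplotlib 3.10.9.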

Additional observations from a re-analysis of the deposited data

Results flagged for a closer look

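An array was singled out among the 4 controls when its gap to the nearest of them, as a share of their range, exceeded Dixon's critical value for 4 samples. Of 62 probe sets examined, 2 met this, where chance gives about 1 in 20. For the dim Msn probe set rc_AI639041_at the array was control 1, which read 3.44 while controls 2 to 4 read 2.75 to 2.83. It was control 1 again for rc_AI105348_i_at, joint to Cfl1 and Cfl1l1, which read 7.81 there and 7.28 to 7.34 elsewhere among the controls. The 3 ethanol arrays were too few for this comparison.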

How the results depend on the processing

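The count of the 15 probe sets past the threshold was 0 under every alternative and with each array left out (lowest 0, highest 0), except with array weights, where 1 passed, J02780_at of Tpm4, at -0.64; Tpm4 was picked on this contrast, so nothing is read from that pass. With that setting 1035 probe sets had an unadjusted p under 0.05, against 400 without. The count over the wider lists was 0 under every alternative. Over all probe sets the count was 13 (12 higher, 1 lower), 13 to 16 with each array left out, and 23 (20 higher, 3 lower) with the replicate block. The replicate numbers 2, 3 and 4 are shared by both diets, but nothing in the labels ties them. The within-number correlations of deviations were 0.425, 0.067 and 0.432. Those of numbers 2 and 4 were the highest between any ethanol and any control array. Ethanol 3 correlated better with control 1 (0.104) than with control 3. Whether the numbers mark a pairing was not tested. The block changed no call among the 15. Control 1 has no ethanol array of its number, so it does not enter the block's differences, which equal those with control 1 left out. The differences of M34134_s_at of Tpm1, V01217_at of Actb, X02412_at of Tpm1 and Ezr changed sign under some alternative. All other probe sets of the 15 kept their sign wherever they were fitted, among them Vim and rc_AI105374_at of Tpm4, whose difference was only 0.072. For the 6 with groups apart, leaving out an array could not turn the sign, so nothing is read from their keeping it. With all probe sets under the median brightness left out, 10 of the 15 were left to test; both Pdlim5 probe sets, Myl6b and rc_AI639041_at of Msn, 4 of the 6 with groups apart, were among those removed, and 2 in place of 5 had an unadjusted p under 0.05. With the mean of the gene's probe sets in place of that with the highest mean, Tpm4 stood at -0.291 and Tpm1 at -0.140. The causes were not tested.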
